A study of Mus musculus with 14 samples.

Results

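Transcripts of 10 integrin subunits of leukocytes and phagocytes were followed in mouse ventral spinal cord, out of 24116 genes in the deposited table. The subunits were taken by gene symbol: the alpha chains Itgam, Itgal, Itga4, Itga6 and Itgav and the beta chains Itgb1, Itgb2, Itgb3, Itgb5 and Itgb7. Of these, 8 passed the filter on low values and were tested. The other 2, Itgal and Itga6, were listed at 0 in all 14 libraries. B2m and Bsg, which nearly every cell uses, were listed at 0 as well, so those zeros are given as listed and not read as absence of the transcripts.

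Integrins are membrane receptors built from 1 alpha and 1 beta chain, and a chain reaches the cell surface only with a partner. The beta2 integrins of leukocytes bind cell adhesion molecules on endothelium and complement fragments on debris, and the alpha4 integrins bind Vcam1, fibronectin and Madcam1. The alphav integrins bind matrix proteins, bridging proteins that mark dying cells, and latent TGF-beta, and in the central nervous system microglia are known for alphavbeta5 and for alphaMbeta2, the receptor long used to stain them.

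All mice carried Cx3cr1-CreER, a recombinase that tamoxifen activates, made in microglia and in other cells that express Cx3cr1. Ablated mice also carried Rosa26-iDTR+/-, a diphtheria toxin receptor that the recombinase switches on, and non-ablated mice were Rosa26-iDTR-/-. Tamoxifen was given for 3 days, lysophosphatidylcholine (LPC), which strips myelin, was injected 4 to 6 weeks later, and diphtheria toxin was given daily up to collection at 5 days after LPC. Lesion and distal tissue was collected by laser capture or microdissection from pools of 3 to 5 mice of both sexes, giving 3 libraries per region for the non-ablated and 4 per region for the ablated genotype. Both regions of a genotype were taken from shared pools, but no label links a lesion library to its distal counterpart, so the tests treat them as unpaired. Age labels step up by 1 month in every library, from 2 to 15 months, and cannot all be true ages, since pieces of 1 pool share an age. Ablated libraries have the higher labels, so labelled age and ablation cannot be told apart. The strain is not given in the sources used here.

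Libraries held 23601763 to 30844575 recovered reads and 15949 to 17945 genes with a read. Cx3cr1, the check of the ablation labels, was at 510 to 1361 normalized counts in distal and 3657 to 4717 in lesion tissue of non-ablated mice, against 21.7 to 128 and 155 to 336 in ablated mice. Summed levels of 10 pan-macrophage markers were 29758 to 51708 (non-ablated distal), 436120 to 638250 (non-ablated lesion), 10771 to 62616 (ablated distal) and 655520 to 1024500 (ablated lesion). Lyz2 made up much of that sum, at 196925 to 304690 in non-ablated and 474237 to 697525 in ablated lesions, whereas over the 10 markers the median difference between ablated and non-ablated lesions was -0.45 on the log2 scale, with 2 called lower by limma. Summed levels of 10 microglia markers, with P2ry12 and Gpr34 listed at 0, were 115630 to 141080 in non-ablated and 26745 to 70531 in ablated lesions. The distal sums were 47187 to 95875 without and 27101 to 170160 with ablation. Oligodendrocyte markers summed to at least 1918900 in every distal library and at most 423120 in every lesion library. In bulk tissue, fewer cells of a type and less RNA per cell cannot be told apart. The library distal_ablated 9 had the fewest genes, and leaving it out is given below where it changed a call.

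Levels are normalized counts, that is, reads divided by a size factor per library. Log2 fold changes are differences of mean log2(normalized count + 1), a scale that shrinks changes of low genes; ± gives the standard error. Adjusted p-values are from limma over 15637 genes, with 0.05 as the threshold for a call. Coordinates are on GRCm38, counted from 1.

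Promoter windows from RefSeq, running from 250 bases before to 50 bases after the start that the table places, matched 6 of the 10 subunits (all but Itgal, Itga6, Itgb2 and Itgb3). They were searched on both strands for GAGGAA, which reads as TTCCTC on the other strand and is the core bound by PU.1, a transcription factor of myeloid cells. Of 32851 windows of 300 bases, 28.3% held it. The windows of Itgam, Itgav, Itgb1 and Itgb7 held it and those of Itga4 and Itgb5 did not. The windows below, all on the plus strand of GRCm38.p6, belong to the subunit with the most matches, an alphav chain that was not called between lesion and distal tissue, and its beta5 partner, which rose in lesions. Capitals mark the core on either strand.
Itgam (chr7:128062390-128062689): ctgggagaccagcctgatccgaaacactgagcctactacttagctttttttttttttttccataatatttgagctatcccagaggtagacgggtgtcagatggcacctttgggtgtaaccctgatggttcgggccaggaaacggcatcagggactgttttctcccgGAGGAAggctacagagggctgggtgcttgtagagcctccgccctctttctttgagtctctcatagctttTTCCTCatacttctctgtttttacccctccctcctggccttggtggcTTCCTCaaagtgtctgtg
Itgav (chr2:83724147-83724446): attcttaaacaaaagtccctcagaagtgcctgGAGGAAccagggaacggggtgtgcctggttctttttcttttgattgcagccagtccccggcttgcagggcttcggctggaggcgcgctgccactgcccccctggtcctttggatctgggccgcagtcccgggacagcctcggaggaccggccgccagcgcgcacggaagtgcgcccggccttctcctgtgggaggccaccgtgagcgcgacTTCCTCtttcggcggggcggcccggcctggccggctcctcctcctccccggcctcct
Itgb5 (chr16:33829415-33829714): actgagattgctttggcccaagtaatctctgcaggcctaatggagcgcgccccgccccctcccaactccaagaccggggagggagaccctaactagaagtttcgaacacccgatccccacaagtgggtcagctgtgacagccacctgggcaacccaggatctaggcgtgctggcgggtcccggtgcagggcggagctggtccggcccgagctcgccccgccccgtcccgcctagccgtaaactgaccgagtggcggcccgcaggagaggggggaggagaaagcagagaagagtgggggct
In Itgam the matches began at positions -84, -15 and 32 from the start, and in Itgav at -218 and -7. The Itgb5 window had no match. GGGCGG or its reverse CCGCCC, the box bound by Sp1, lay at -199, -63 and -34 in Itgb5, at -47 in Itgam, at 7 in Itgav, at -114 in Itga4 and at -151 in Itgb1, and 35.7% of all windows held that box. These matches are letters in a window and say nothing of binding in these samples.

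In non-ablated mice the lesion held more transcript of 5 of the 8 tested subunits, Itgam, Itgb2, Itga4, Itgb1 and Itgb5, by 1.97 to 4.11 on the log2 scale. Over all tested genes, 14.7% were called higher, 13.3% lower and 28.0% in either direction. In ablated mice the same comparison called 6 of 8 higher, the same subunits and Itgb7, by 2.03 to 4.41, where 16.1% of all genes were called higher, 13.8% lower and 29.9% either way. No subunit was called lower in either genotype. The median change of the 8 was 2.61 in non-ablated and 2.91 in ablated mice, beside 0.07 and 0.05 over all tested genes. Lesion and distal libraries did not overlap for 5 subunits in non-ablated and 6 in ablated mice, beside 49.2% and 30.1% of all genes.

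**Figure D1:**
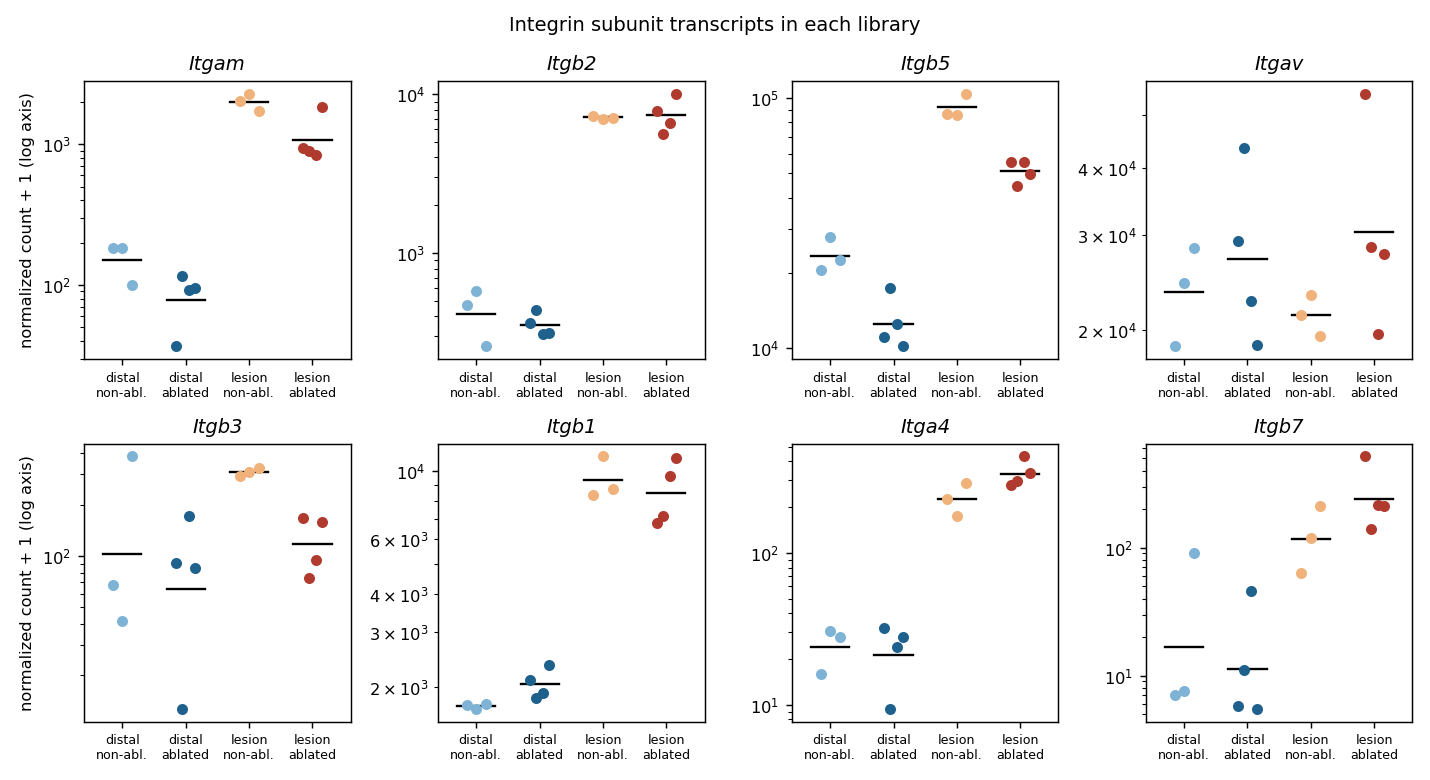
Normalized count + 1 (log axis) of the 8 tested integrin subunits in each library, by group; points are libraries and bars are the mean on the log scale (n = 3 per non-ablated group, n = 4 per ablated group). Itgam, Itgb2, Itga4, Itgb1 and Itgb5 stand higher in every lesion library than in every distal library, and Itgav does not.

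Itgam encodes the alphaM chain (CD11b), which with beta2 forms complement receptor 3 (chromosome 7, 128062640 to 128118491). Its normalized counts were 182, 183 and 99.2 in non-ablated distal, 2042, 2286 and 1734 in non-ablated lesion, 35.6, 115, 91.3 and 94.7 in ablated distal, and 940, 888, 834 and 1831 in ablated lesion libraries. Every lesion library lay above every distal library, and among ablated lesions lesion_ablated 14 stood well above the other 3. The gene rose in lesions by 3.74 ± 0.44 in non-ablated (adjusted p = 2.8e-05) and by 3.76 ± 0.38 in ablated mice (adjusted p = 5.59e-06). In ablated against non-ablated lesions the difference was -0.92 ± 0.41, with a 95% interval from -1.80 to -0.04, and was not called (adjusted p = 0.651). In distal tissue it was -0.94 ± 0.41 (adjusted p = 0.484). The groups overlapped in both regions.

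Itgb2 encodes beta2 (CD18), the chain common to the leukocyte integrins alphaL, alphaM, alphaX and alphaD (chromosome 10, 77530329 to 77565708). It was at 468, 581 and 258 normalized counts in non-ablated distal, 7315, 6968 and 7135 in non-ablated lesion, 363, 439, 308 and 315 in ablated distal, and 7834, 5641, 6558 and 10080 in ablated lesion libraries. The rise in lesions was 4.11 ± 0.29 in non-ablated (adjusted p = 1e-06) and 4.38 ± 0.25 in ablated mice (adjusted p = 8.72e-08). Among the subunits it had the smallest adjusted p in both. Ablated and non-ablated lesions overlapped, at a difference of 0.04 ± 0.27 with a 95% interval from -0.54 to 0.63 (adjusted p = 0.999), so these data allow a change of that size in either direction.

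The balance of the alpha chains against beta2 is described here with no test. The log2 level of Itgam minus that of Itgb2 ran from -2.04 to -1.61 in non-ablated and from -3.06 to -2.46 in ablated lesions, without overlap. For Itgax, the alphaX chain (CD11c) of complement receptor 4, which is not one of the 10, the same difference ran from -3.58 to -3.03 in non-ablated and from -2.46 to -1.79 in ablated lesions. Relative to Itgb2, ablated lesions thus had less Itgam and more Itgax than non-ablated lesions. In distal tissue Itgam minus Itgb2 ran from -1.66 to -1.36 in non-ablated and from -3.31 to -1.72 in ablated libraries, the lowest being distal_ablated 7. Itgax minus Itgb2 overlapped there, from -6.19 to -2.11 in non-ablated and from -5.56 to -3.27 in ablated libraries. Its distal mean was lower with ablation, at -4.37 against -3.52, opposite to lesions. How often pairs of other genes separate in this way was not examined.

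Itga4 encodes the alpha4 chain, which pairs with beta1 on many leukocytes and with beta7 on lymphocytes that home to the gut (chromosome 2, 79255426 to 79333114). Its annotation overlaps that of Cerkl, and since counting by strand is not given, reads could be divided between them. It was at 15.0, 29.7 and 26.7 normalized counts in non-ablated distal, 226, 173 and 288 in non-ablated lesion, 30.9, 8.35, 22.8 and 26.8 in ablated distal, and 279, 296, 430 and 335 in ablated lesion libraries. It rose in lesions by 3.24 ± 0.51 (adjusted p = 0.000287) in non-ablated and by 3.97 ± 0.44 (adjusted p = 1.24e-05) in ablated mice, with no overlap. The difference between ablated and non-ablated lesions was 0.56 ± 0.48 (adjusted p = 0.999).

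Itgb1 encodes beta1, the chain that most cell types use to hold on to matrix (chromosome 8, 128685654 to 128733579). Distal tissue held 1746, 1694 and 1754 normalized counts in non-ablated and 2098, 1846, 1904 and 2360 in ablated libraries, and lesions held 8364, 11135 and 8728 in non-ablated and 6770, 7131, 9589 and 11011 in ablated libraries. The rise in lesions was 2.43 ± 0.21 (adjusted p = 2.73e-06) and 2.05 ± 0.18 (adjusted p = 2.05e-06), respectively. All 4 ablated distal libraries lay above the 3 non-ablated ones, at a difference of 0.24 ± 0.20 that was not called (adjusted p = 0.772).

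Itgb7 encodes beta7, the other partner of alpha4 and a partner of alphaE (chromosome 15, minus strand, 102215994 to 102233405). It was at 5.99, 6.61 and 89.1 normalized counts in non-ablated distal, 62.2, 117 and 212 in non-ablated lesion, 4.75, 10.0, 44.7 and 4.47 in ablated distal, and 516, 139, 213 and 209 in ablated lesion libraries. The high distal library of non-ablated mice, distal_control 5, lay above the lowest lesion library. Itgb7 rose in ablated mice by 4.41 ± 0.87 (adjusted p = 0.00142), while in non-ablated mice the difference was 2.79 ± 1.00 (adjusted p = 0.0514). The latter lay so near the threshold that several settings called it. Without distal_control 5 it was 4.00 ± 0.89 (adjusted p = 0.00486), and it was also called without distal_ablated 9 or 11 (adjusted p = 0.0482 and 0.0329), with a pseudocount of 10 (0.0478), a filter at 50 (0.0487) or array weights (0.00774), and without distal_control 5 and lesion_control 6 together (0.0241). The interaction, which tests whether ablation altered the lesion response, was 1.62 ± 1.33 (adjusted p = 0.945). The 2 libraries with the highest summed T and NK cell markers were distal_control 5 at 746.77 and lesion_control 6 at 885.52, where the lowest non-ablated lesion was at 116.39. In distal_control 5, Gzma alone was at 411. Ablated lesions, which held the library with the highest Itgb7, had sums of 83.904 to 158.36. Of all distal libraries, distal_control 5 also had the highest sums of recruited monocyte markers (19449) and neutrophil markers (249.35). Recruited monocyte markers summed to 49839 to 70354 in non-ablated and 20010 to 33816 in ablated lesions. Neutrophil markers summed to 118 to 795.9 and 287.42 to 2001.2, respectively. The part of any of these cell types in the Itgb7 values was not tested.

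Itgav encodes alphav, the chain shared by the vitronectin receptors (chromosome 2, 83722303 to 83806917). Its normalized counts were 18622, 24467 and 28314 in non-ablated distal, 21315, 23226 and 19501 in non-ablated lesion, 29184, 43395, 22631 and 18733 in ablated distal, and 54838, 28504, 19658 and 27658 in ablated lesion libraries. All 4 groups overlapped. The lesion difference was -0.14 ± 0.35 (adjusted p = 0.808) in non-ablated and 0.17 ± 0.30 (adjusted p = 0.731) in ablated mice, and the difference between ablated and non-ablated lesions was 0.51 ± 0.33 with a 95% interval from -0.19 to 1.22 (adjusted p = 0.965).

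Itgb5 encodes beta5, which with alphav takes up dying cells marked by the bridging protein Mfge8 (chromosome 16, 33829665 to 33949338). It was at 20478, 27823 and 22427 normalized counts in non-ablated distal and 86550, 85985 and 104253 in non-ablated lesion libraries. In ablated mice it was at 11083, 17326, 12411 and 10140 in distal and 55535, 44679, 55447 and 49551 in lesion libraries. In each region every ablated library lay below every non-ablated one. It rose in lesions by 1.97 ± 0.22 (adjusted p = 1.75e-05) in non-ablated and by 2.03 ± 0.19 (adjusted p = 2.84e-06) in ablated mice, and the interaction was 0.06 ± 0.29 (adjusted p = 0.992).

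The lower Itgb5 of ablated mice was of like size in both regions and did not pass the threshold across all genes. In lesions the difference was -0.85 ± 0.21, with a 95% interval from -1.29 to -0.41 (adjusted p = 0.135). In distal tissue it was -0.91 ± 0.21, from -1.35 to -0.47 (adjusted p = 0.0904). DESeq2 on the recovered reads called it in both (adjusted p = 0.0118 in lesions and 0.00517 in distal tissue), and limma did so without distal_ablated 9 (adjusted p = 0.0402 and 0.0161). The summed microglia markers given above were lower in all ablated than in all non-ablated lesions but overlapped between the genotypes in distal tissue, and their part in the Itgb5 values was not tested.

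Itgb3 encodes beta3, which pairs with alphav and, on platelets, with the alphaIIb chain of Itga2b (chromosome 11, 104608000 to 104670476). It was at 66.9, 40.8 and 382 normalized counts in non-ablated distal, 294, 310 and 325 in non-ablated lesion, 90.2, 11.7, 171 and 84.0 in ablated distal, and 165, 73.4, 93.9 and 157 in ablated lesion libraries. The library distal_control 5 held the highest value of all 14. In non-ablated mice the lesion difference was 1.60 ± 0.88 (adjusted p = 0.205), and without distal_control 5 it was 2.55 ± 0.84 (adjusted p = 0.0392). In ablated mice it was 0.86 ± 0.76 (adjusted p = 0.435), and 0.085 without distal_ablated 9, which held the lowest value. Every ablated lesion lay below every non-ablated lesion, at a difference of -1.41 ± 0.83 (adjusted p = 0.914).

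In distal_control 5, Itga2b was at 282 normalized counts, and at 6.61 to 49.2 in the other 13 libraries. Gp9, a further platelet glycoprotein, was at 401 there and at most 3.23 elsewhere. Other platelet genes were not high in that library. The glycoprotein gene Gp1ba was at 0 and the chemokine gene Pf4 at 5.09. The chemokine gene Ppbp was at 0 there and at most 2.49 in any library. These platelet genes were looked at after their values were seen, and the part of platelets in the Itgb3 value of that library was not tested.

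The balance of alphav against its beta partners is described here, again with no test. Itgav minus Itgb5 on the log2 scale ran from -0.19 to 0.34 in non-ablated distal, from 0.87 to 1.40 in ablated distal, from -2.42 to -1.89 in non-ablated lesion, and from -1.50 to -0.02 in ablated lesion libraries. Within each region the ablated and non-ablated libraries did not overlap, with less Itgb5 relative to Itgav in the ablated ones. Itgav minus Itgb3 ran from 5.90 to 6.22 in non-ablated and from 7.45 to 8.58 in ablated lesions. In distal tissue it overlapped between the genotypes, from 6.21 to 9.19 in non-ablated and from 7.04 to 11.74 in ablated libraries. Itgav minus Itgb1 overlapped between the genotypes in both regions. In lesions it ran from 1.06 to 1.35 in non-ablated and from 1.04 to 3.02 in ablated libraries. The pairs of Itga4 overlapped between the genotypes in both regions too. In lesions Itga4 minus Itgb1 ran from -6.00 to -4.92 in non-ablated and from -5.04 to -4.47 in ablated libraries. Itga4 minus Itgb7 ran from 0.44 to 1.85 and from -0.88 to 1.09, respectively.

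**Figure D2:**
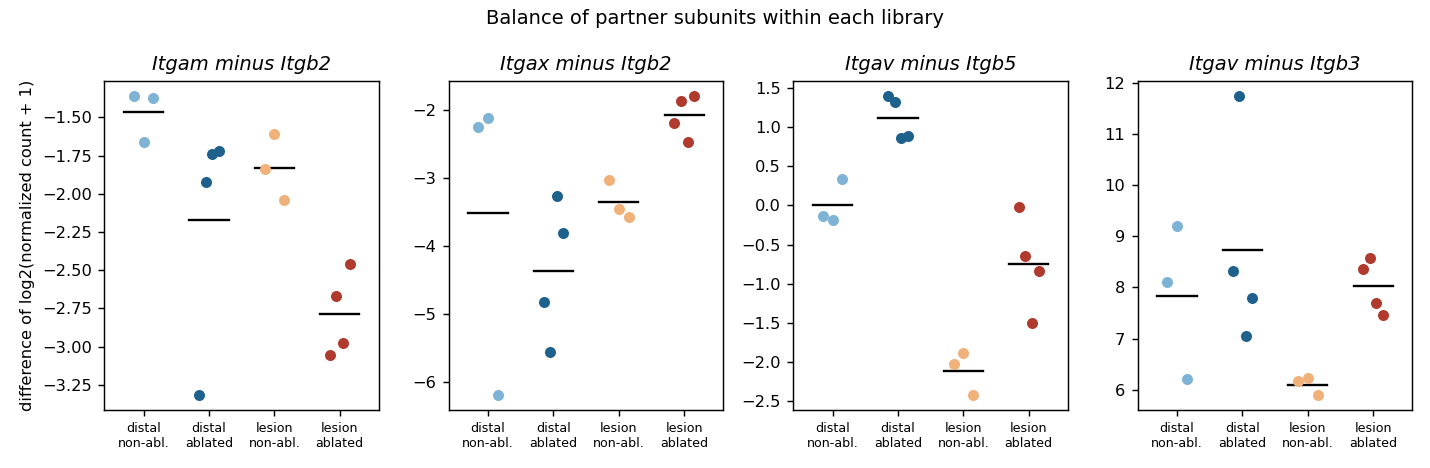
Difference of log2(normalized count + 1) between partner subunits in each library, by group; points are libraries (n = 3 per non-ablated group, n = 4 per ablated group). Itgav minus Itgb5 is higher in all ablated than in all non-ablated libraries of a region, at 0.87 to 1.40 against -0.19 to 0.34 in distal tissue. Itgav minus Itgb1, Itga4 minus Itgb1 and Itga4 minus Itgb7, which overlapped between the genotypes in both regions, are not drawn.

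Across the 8 tested subunits, ablation gave 0 calls with limma in lesions, where 0.294% of all genes were called, and 0 in distal tissue, where 0.365% were. At an unadjusted p under 0.05 there were 2 in each region, Itgam and Itgb5, both lower. Over all 15637 tested genes, 1128 passed that level in lesions and 1515 in distal tissue. With edgeR 0 subunits were called in each region, and with DESeq2 1 in each, Itgb5. DESeq2 called 259 of all genes in lesions and 532 in distal tissue, beside 46 and 57 with limma. Groups did not overlap for 2 subunits in lesions (Itgb5 and Itgb3, lower) and for 2 in distal tissue (Itgb5, lower, and Itgb1, higher), beside 16.0% and 5.49% of all genes. The interaction gave 0 calls with limma, edgeR and DESeq2, and 0.0128% of all genes were called with limma. At an unadjusted p under 0.05 it gave 0 subunits and 885 of all genes. The adjusted p nearest to the threshold in that test was 0.939, for Itgb1.

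**Figure D3:**
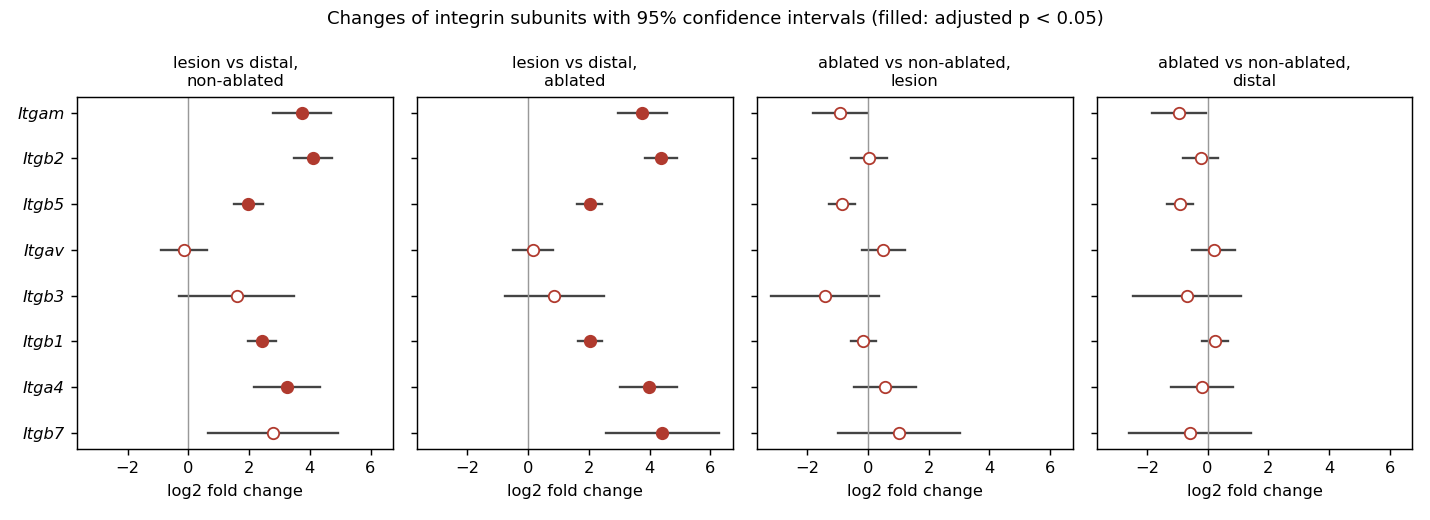
Log2 fold changes of the 8 tested integrin subunits for lesion versus distal tissue in each genotype and ablated versus non-ablated mice in each region, with 95% confidence intervals (filled points, adjusted p under 0.05 with limma). The lesion responses are filled for 5 subunits in non-ablated and 6 in ablated mice, and no point is filled for ablation. The interaction is not drawn.

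Per kilobase of exon (GENCODE M21 exon lengths), Itgb5 was the most abundant of the subunits in every group, at a mean of 6636 normalized counts per kb in non-ablated distal, 3586 in ablated distal, 25968 in non-ablated lesion and 14439 in ablated lesion tissue. In distal tissue it was followed by Itgav (2215 non-ablated, 2651 ablated), Itgb1 (424 and 503), Itgb2 (143 and 117) and Itgam (30.8 and 16.8). In non-ablated lesions Itgb2 at 2339, Itgb1 at 2306 and Itgav at 1987 per kb followed Itgb5, each overlapping the next between libraries, as did Itgav at 3040, Itgb2 at 2467 and Itgb1 at 2114 in ablated lesions. Itgb5 and Itgav overlapped in ablated distal tissue. In lesions Itgam came next, at 402 per kb in non-ablated and 224 in ablated tissue. Itgb3, Itgb7 and Itga4 were at most 97.3 per kb in any group mean, with Itga4 lowest in 3 groups and Itgb3 lowest in ablated lesions.

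The genes whose log2 levels followed each subunit most closely over the 14 libraries are given as a description, since lesion and distal tissue shape many such values. Itgam ran most like Clec7a, a receptor for fungal glucans (r = 0.991), then Plek and Fam46c. Itgb2 ran most like the lipid exporter Abca1 (r = 0.995), then Anxa4 and Lpl, and Itgb5 most like the complement genes C1qa and C1qb (r = 0.986 for each), then Lair1. Itgb1 ran most like the myosin gene Myh9 (r = 0.988), then Msn and Arhgap18, and Itga4 most like Mdfic (r = 0.976), then the scavenger receptor gene Cd36 and Man2a1. Itgb7 ran most like the acute phase gene Saa3 (r = 0.965), then Arhgap9 and Mirt1. The closest genes to Itgav were Prdx1 (r = 0.915), the tetraspanin gene Cd151 and Greb1, and to Itgb3 Zfp729a (r = 0.934), Os9 and Arid5b. For Itgav and Prdx1 r was 0.916 with group means removed, and for Itgb3 and Zfp729a it was 0.957. With group means removed, values between pairs of subunits ran from -0.590 (Itgb2 and Itgb3) to 0.615 (Itgb3 and Itgb7) over the 14 libraries, with 0.561 for the partners Itgam and Itgb2 and 0.490 for Itgav and Itgb5.

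Of 13 other alpha subunits, all tested, 3 rose in lesions of non-ablated mice (Itga5, Itgax and Itga1) and 4 in those of ablated mice (also Itga11). Over all tested genes, 14.7% were called higher in non-ablated and 16.1% in ablated mice. Itga5, the fibronectin receptor chain that pairs with beta1, rose by 3.21 ± 0.68 (adjusted p = 0.00273) and 3.18 ± 0.59 (adjusted p = 0.000853). Itgax rose by 4.27 ± 1.01 (adjusted p = 0.00559) and 6.66 ± 0.87 (adjusted p = 5.22e-05). The first value depends on distal_control 5, at 2.54 normalized counts where the other distal libraries of non-ablated mice were at 97.8 and 133, and was 2.60 without it, still called. Itgax was at 896, 633 and 597 normalized counts in non-ablated and 1712, 1542, 1187 and 2905 in ablated lesions, without overlap, but the difference of 1.32 ± 0.94 was not called (adjusted p = 0.999). The calls of Itga1 in non-ablated and Itga11 in ablated mice (adjusted p = 0.0432 and 0.0476) were fragile to single libraries. The first was lost without any 1 of the 6 non-ablated libraries, lesion_ablated 10, 12 or 14 (adjusted p = 0.0554 to 0.158), and the second without any library but distal_control 3 or 5 (adjusted p = 0.0535 to 0.106). Both were also lost with no filter on low values (adjusted p = 0.057 and 0.0792) and with the age label as covariate (0.0536 and 0.0631). Of 3 other beta subunits, 2 were tested, and Itgb4, the partner of alpha6, fell by 4.47 on the log2 scale in non-ablated and by 2.93 in ablated mice (adjusted p = 0.000322 and 0.0023). In distal_control 3 it was at 14957 normalized counts, where the other distal libraries of non-ablated mice were at 1454 and 1359. Without that library the non-ablated difference was -3.34, still called.

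**Figure D4:**
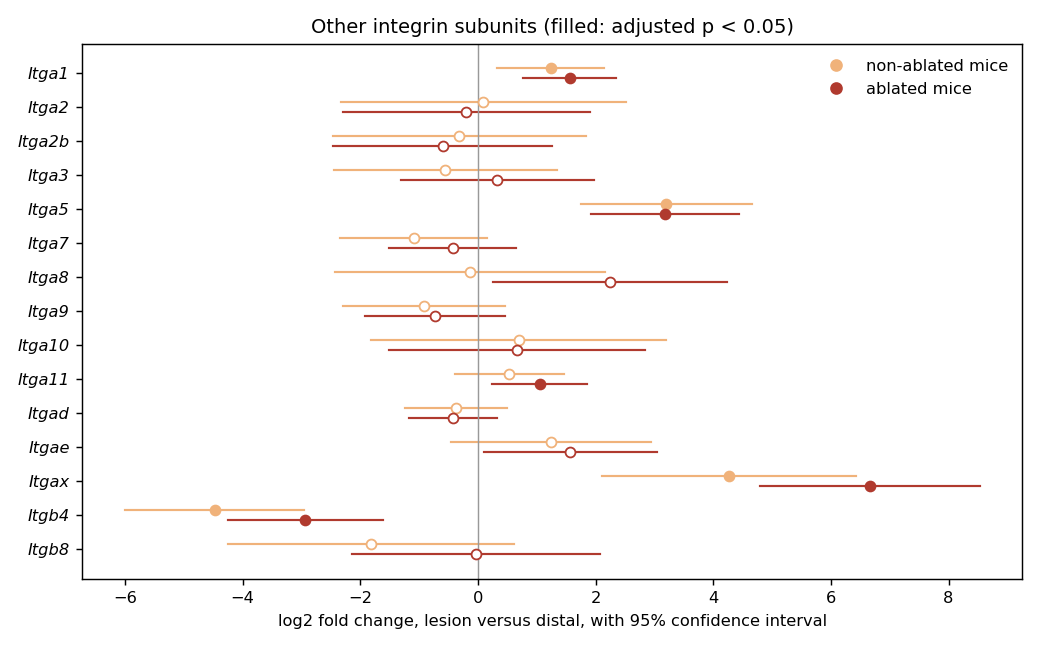
Log2 fold change, lesion versus distal, of the other tested integrin subunits in non-ablated and ablated mice, with 95% confidence intervals (filled points, adjusted p under 0.05 with limma). Itgax and Itga5 stand to the right and Itgb4 to the left of 0 in both genotypes.

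Genes of the pathway lists are given by counts of those called in lesion against distal tissue. Over all tested genes, 14.7% were called higher and 13.3% lower in non-ablated mice, and 16.1% and 13.8% in ablated mice. Of 9 tested counter-receptors of beta1, beta2 and beta7 integrins, 1 rose and 1 fell in non-ablated and 2 rose and 1 fell in ablated mice. Icam1, a ligand of beta2 integrins, rose by 1.69 ± 0.48 (adjusted p = 0.0165) and 1.60 ± 0.42 (adjusted p = 0.0091), the former not called without distal_control 1 (adjusted p = 0.0782), lesion_control 4 (0.0523) or lesion_control 6 (0.0677). The junction gene Jam3 fell by 1.66 in non-ablated mice and was called lower in ablated mice too, and F11r, a further junction gene, rose by 2.18 ± 0.43 in ablated mice (adjusted p = 0.00146), with 1.08 ± 0.50 in non-ablated mice (adjusted p = 0.125).

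Of 17 tested matrix and bridging ligands, 8 rose and 1 fell in each genotype. Spp1, osteopontin, rose by 7.27 ± 0.73 in non-ablated (adjusted p = 8.05e-06) and 7.03 ± 0.64 in ablated mice (adjusted p = 2.18e-06). Fn1, fibronectin, rose by 3.66 ± 0.41 and 2.02 ± 0.35 (adjusted p = 1.81e-05 and 0.000559), and Edil3, a bridging protein, fell by 2.99 and by 2.31. Lama4, a laminin chain, rose by 2.51 ± 0.34 in non-ablated and 1.55 ± 0.30 in ablated mice, and Postn, periostin, by 4.63 ± 0.71 and 5.38 ± 0.61. Summed fibroblast markers were 3611 to 8766.6 in distal tissue and 34329 to 90825 in lesions, and their part in these values was not tested.

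Mfge8, the bridging ligand of alphavbeta5 and alphavbeta3, was the one gene of these lists called between ablated and non-ablated lesions. It was at 4727, 4542 and 6969 normalized counts in non-ablated and 15368, 15120, 15394 and 19408 in ablated lesions, and at 2244 to 3919 in distal tissue of both genotypes. It was higher in ablated lesions by 1.61 ± 0.22 (adjusted p = 0.00742), where its receptor chain Itgb5 was the lower by the values above and not called. The Mfge8 call was lost without lesion_control 2 (adjusted p = 0.0891), without lesion_control 4 (adjusted p = 0.0704) and with the age label as a covariate (adjusted p = 0.249).

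Of 2 tested complement genes, C3 and Cfb, C3 fell in lesions, by 2.49 in non-ablated and by 2.08 in ablated mice (adjusted p = 9.66e-05 and 0.000103). Cfb was not called in either genotype. Of 22 tested activation and adaptor genes, 9 rose and 5 fell in non-ablated and 10 rose and 4 fell in ablated mice. Rap1b, a small GTPase that switches integrins on, rose by 1.45 ± 0.18 and 1.38 ± 0.16, and Fermt3, the kindlin of blood cells, by 2.78 ± 0.46 and 3.24 ± 0.40 (adjusted p = 0.000449 and 3.17e-05). Fermt2, the kindlin of other tissues, fell by 1.26 and by 1.23, and the talin gene Tln2 fell by 1.95 and by 2.09. Rasgrp2, an activator of Rap proteins, fell by 2.12 in non-ablated mice (adjusted p = 0.000156). In ablated mice its lesion and distal libraries overlapped, at 258 to 339 and 230 to 395 normalized counts.

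Of 16 tested kinase and engulfment signalling genes, 8 rose and 1 fell in non-ablated and 10 rose and 1 fell in ablated mice. Lyn, a Src family kinase of blood cells, rose by 2.79 ± 0.27 and 3.09 ± 0.23, and Dock2 and Vav1, exchange factors that drive actin assembly, rose by 2.57 ± 0.38 and 2.23 ± 0.41 in non-ablated and by 3.50 ± 0.33 and 3.37 ± 0.36 in ablated mice. Fcer1g, an adaptor with activating motifs, rose by 2.78 ± 0.54 in non-ablated and 3.37 ± 0.47 in ablated mice. In distal tissue of ablated mice F11r fell by 2.73 (adjusted p = 0.0261) and Vav1 by 1.93 (adjusted p = 0.0491). The call of F11r was lost without lesion_control 2, distal_control 3 or lesion_control 4 (adjusted p = 0.0508 to 0.13). That of Vav1 was lost without any single library other than lesion_ablated 8 or distal_ablated 9 (adjusted p = 0.0665 to 0.14). Both were also lost with the age label as covariate (adjusted p = 0.0766 for F11r and 0.453 for Vav1). The same held with only the groups compared (0.777 and 0.778). Vav1 was further lost with a pseudocount of 0.5 (0.0537), with no filter on low values (0.0631) and without distal_control 5 and lesion_control 6 together (0.181).

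Of 9 tested genes of TGF-beta latency, 3 rose in non-ablated and 4 rose and 1 fell in ablated mice. Nrros, which holds latent TGF-beta on microglia for activation by alphav integrins, rose by 1.49 ± 0.27 (adjusted p = 0.000859) and 2.18 ± 0.23 (adjusted p = 9.22e-06). Tgfb1 rose by 2.69 ± 0.69 and 2.93 ± 0.60, the latent binding protein gene Ltbp2 by 4.86 ± 1.01 and 3.48 ± 0.88, and Tgfb2 fell by 0.91 in ablated mice (adjusted p = 0.016), with -0.80 ± 0.30 in non-ablated mice (adjusted p = 0.0636). Of 9 tested membrane partners, 5 rose and 1 fell in non-ablated and 4 rose and 2 fell in ablated mice. Cd47, the integrin-associated protein, rose by 0.88 ± 0.22 and 0.88 ± 0.19, the tetraspanin gene Cd63 by 1.81 ± 0.32 and 1.53 ± 0.27, and Basp1 by 2.29 ± 0.30 and 2.63 ± 0.26. The tetraspanin gene Cd82 fell by 1.69 in non-ablated and by 1.42 in ablated mice, and Cd81 fell by 1.09 in ablated mice, where in non-ablated mice its value was -0.48 ± 0.19 (adjusted p = 0.077). No gene of these last 4 lists was called between ablated and non-ablated lesions.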

How the data were processed

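RNA of 14 pooled tissue libraries was amplified by multiple displacement and sequenced, per the labels' protocols. Per the submitters' processing notes, bcl2fastq, BWA 0.7.17.1, DESeq2 and mm10 were used. How reads were counted, with which annotation and whether by strand, is not given in the sources used here. Per the labels, the authors deposited normalized counts as signal, made with DESeq2 size factors from gene counts. Each column was divided by the value of 1 read, which gave whole reads for 100% of values within 0.01. In distal_control 1 that step was 0.998. The 8 entries without a gene symbol held at most 0.0239% of reads. No column of other samples was present.

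Groups came from the titles. Means of the 4 groups were fitted with limma 3.58.1 (R 4.3.3) on log2(normalized count + 1) for 15637 genes that reached 10 normalized counts in 3 or more libraries, with 1 spread per gene over all groups (10 residual and 4.23 prior degrees of freedom) and Benjamini-Hochberg adjustment within each of the comparisons. p-values measure the spread between pools. Comparisons of lesion with distal tissue and of genotypes share libraries. Recovered reads were tested with edgeR 4.0.16 (quasi-likelihood) and DESeq2 1.42.0 as alternatives; other alternatives were TMM scaling, pseudocounts, filters, array weights, the age label as covariate, only the groups compared, and libraries left out. The limma fit was also run on simulated counts, with the outcome not reported here. Reads amplified without molecular identifiers are not independent molecules. A count of 0 leaves room for up to 3 reads by counting error.

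Named genes were all 10 subunits, the genes called in each pathway list (the 4 with the smallest p where more were called), the 3 genes most correlated with each subunit (predicted genes, RIKEN clones, mitochondrial genes and small RNAs left out) and Cx3cr1. One gene taken by this rule is not reported here. The subunits and lists were chosen with earlier results of these data known. Marker levels are sums of normalized counts.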

Additional observations from a re-analysis of the deposited data

Results flagged for a closer look

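In ablated lesions, the Itgam value of lesion_ablated 14 stood apart from the other 3 libraries: it was at 1831 normalized counts and the nearest at 940, a gap of 0.893 of the group's range. In ablated distal tissue, the Itgb7 value of distal_ablated 11 stood apart in the same way, at 44.7 normalized counts with the nearest at 10.0, a gap of 0.862 of the range. Both gaps exceed Dixon's 95% critical value for groups of 4, which chance passes in about 1 of 20 groups; 16 groups were examined and 2 passed.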

How the results depend on the processing

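No called subunit lost its call in either lesion response under any of 25 alternatives, with 5 to 7 subunits called in non-ablated and 6 in ablated mice. Of 992 values of subunits under alternatives, 16 passed the threshold anew and 26 changed sign, none of them called. In lesions, 3 subunits were called lower in ablated mice with array weights (Itgam, Itgb3 and Itgb5), 1 with DESeq2, and 0 to 1 with a library left out. In distal tissue, 1 was called with DESeq2 and 0 to 1 with a library left out. Genes called between ablated and non-ablated lesions numbered 46, and 2 to 1013 under alternatives. In distal tissue they numbered 57, and 0 to 532. The causes were not tested. Without distal_control 5 and lesion_control 6, the lesion difference of Itgav in non-ablated mice was 0.060, and the distal differences of Itgb3 and Itgb7 were 0.27 and 0.62. With the age label, Itgb7 in lesions was -0.15 and Itgb1 in distal tissue -0.16. With array weights, the distal differences of Itga4, Itgav and Itgb3 were 0.15, -0.033 and 0.35. With a pseudocount of 10, the interaction of Itgam was -0.059. With a library left out, ranges that crossed 0 were -0.12 to 0.39 (Itgav, ablated lesion response) and -0.11 to 0.17 (Itgb2, ablation in lesions). In distal tissue they were -0.47 to 0.21 (Itga4), -0.020 to 0.38 (Itgav), -0.56 to 0.019 (Itgb2), -1.33 to 0.27 (Itgb3) and -1.26 to 0.62 (Itgb7), and in the interaction -0.35 to 0.31 (Itgam) and -0.065 to 0.22 (Itgb5). TMM moved the median of all genes by under 0.1. No paired analysis was possible because every library has its own number and no number recurs between groups. Itga4 and Itgb7 in distal tissue rest on few reads, where differences are least precise.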
